A study of Mus musculus with 32 samples.

Results

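Cebpa, Cebpb, Cebpd, Ebf1, Ebf2, Prdm16 and Zfp516 encode transcriptional regulators known for roles in the formation and identity of brown adipocytes. These 7 genes were chosen by name for that role, without a rule on their values, out of 50686 genes in the count table. All 7 passed the filter on low counts that left 15505 genes for testing. Their mRNA was followed over the day in mouse interscapular brown adipose tissue (iBAT), a fat depot that burns lipid and glucose to make heat.

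RNA-sequencing was done on iBAT of 32 male C57BL/6J mice of 10 weeks, fed chow and kept in mild cold with equal hours of light and dark. Zeitgeber time (ZT) counts hours, where ZT0 is lights on and starts the inactive phase, and ZT12 is lights off and starts the active phase. The 8 groups were defined by the time of collection, every 3 h from ZT0 to ZT21, with 4 mice each, and all were of the same wild-type strain without treatment. Each library is 1 mouse sampled once, so no mouse was followed over time, and the animals were of 1 sex and 1 inbred strain.

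C/EBP proteins are basic leucine zipper factors. C/EBPβ and C/EBPδ act early in the differentiation of fat cells, and C/EBPα acts later and maintains the mature cell together with PPARγ. EBF1 and EBF2 belong to the early B cell factor family. EBF2 marks brown preadipocytes and helps PPARγ to bind at brown fat genes, and EBF1 also directs the development of B lymphocytes. PRDM16 is a zinc finger coregulator that works with C/EBPβ and other factors to hold the brown fate, and ZFP516 is a zinc finger factor that binds the promoter of Ucp1, the gene of the uncoupling protein that makes heat.

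Total counts per library lay between 16300770 and 18254659, with a median of 17418661, so that 3 counts in a library of median depth correspond to 0.172 CPM (counts scaled to a common library size), a floor that covers counting error only. The tissue label was borne out by Ucp1, at 955 to 4318 CPM in the 32 libraries. The 7 brown adipocyte markers summed to between 10025 and 16105 CPM, and none of them was at 0. They include genes of fat cells in general, Fabp4 (mean 6049 CPM), Adipoq and Plin1, so this sum does not mark brown adipocytes alone. The member Elovl3 ran from 0.42 to 69.4 CPM. Skeletal muscle RNA was uneven between mice, with a summed level of 6 muscle markers from 1.95 to 5065 CPM, and none of the 6 differed between time points in the quasi-likelihood test of edgeR after Benjamini-Hochberg (BH) adjustment. Of all tested genes 39.8% differed in that test, and of the other markers it called 3 of 5 for endothelium, 3 of 4 for mural cells, 3 of 6 for stroma and preadipocytes, 2 of 5 for macrophages, 2 of 4 for B cells, 2 of 7 for brown adipocytes and the 1 granulocyte marker tested, against 0 of 3 for T cells, 0 of 5 for blood and 0 of 4 for Schwann cells. Sequencing lane 2 held ZT0 to ZT6, lane 3 held ZT9 to ZT15 and lane 4 held the last 2 time points, so lane and time of day cannot be told apart between lanes. In whole tissue, fewer cells of a type and less RNA per cell cannot be told apart either.

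The level of the factors differed widely. Per kilobase of exonic sequence, Cebpa stood highest with a mean of 151 CPM per kb, and Cebpd stood lowest with 0.643. Between them the means were 32.5 for Cebpb, 11.4 for Ebf2, 7.81 for Ebf1, 4.71 for Prdm16 and 1.74 for Zfp516. The order held within single libraries to different degrees. Cebpa was above Cebpb in 32 of 32 libraries, with a ratio of 4.66 between the means, and their ranges, 76.9 to 210.1 and 13.5 to 72.9 CPM per kb, did not overlap. Prdm16 and Zfp516 also did not overlap over the 32 libraries. Ebf2 was above Ebf1 in 28 libraries and Ebf1 above Prdm16 in 29, so these neighbours overlapped. Cebpb and Ebf2, and likewise Zfp516 and Cebpd, kept their order in every library although their ranges over all libraries overlapped.

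**Figure D1:**
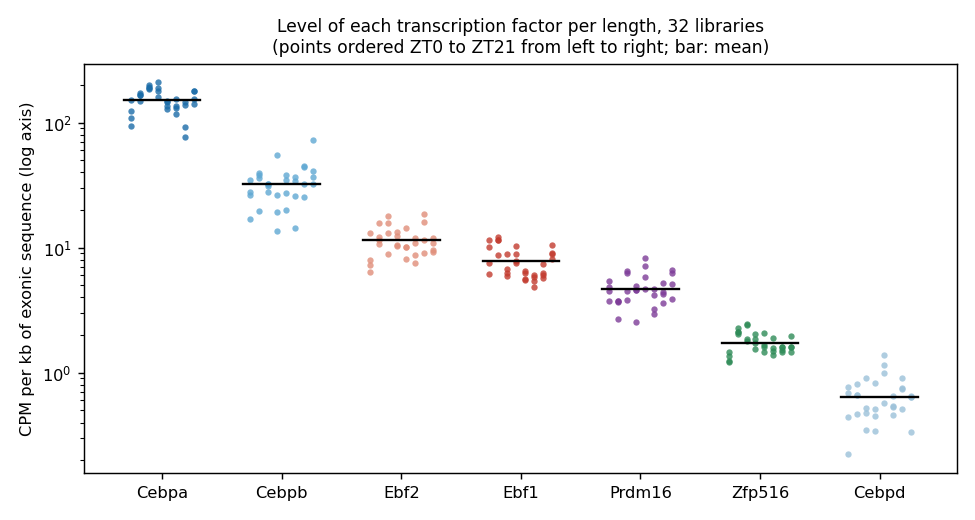
Level of each gene in CPM per kb of exonic sequence, on a log axis, with 1 point per library (32 each), ordered from ZT0 to ZT21 from left to right within a gene, and a bar at the mean. Cebpa lies apart from all other genes at a mean of 151 CPM per kb, and Cebpd lies lowest at 0.643.

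Sequence before a RefSeq start site (GRCm38.p6) was available for 4 of the 7 genes, in 5 windows of 250 bases, and is shown for the 3 genes whose windows held a match to 1 of 9 motifs searched on both strands. The capitals mark the match. The Cebpa window, printed from chr7:35119173-35119292 on the plus strand, holds a TATA box (TATAAA) 30 bases before the start site, a motif found in 12.4% of 32851 promoter windows. The Cebpb window (chr2:167688665-167688914, plus strand) holds the letters of an EBF site, CCCNNGGG, 208 bases before the start site, found in 11.8% of windows. The Prdm16 window, printed from chr4:154636874-154636993 on the minus strand, holds a CCAAT box (CCAAT), the motif after which the C/EBP family was named, 98 bases before the start site, found in 33.9% of windows.
Cebpa: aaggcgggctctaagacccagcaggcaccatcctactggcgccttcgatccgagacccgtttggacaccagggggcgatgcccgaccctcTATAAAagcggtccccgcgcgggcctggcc
Cebpb: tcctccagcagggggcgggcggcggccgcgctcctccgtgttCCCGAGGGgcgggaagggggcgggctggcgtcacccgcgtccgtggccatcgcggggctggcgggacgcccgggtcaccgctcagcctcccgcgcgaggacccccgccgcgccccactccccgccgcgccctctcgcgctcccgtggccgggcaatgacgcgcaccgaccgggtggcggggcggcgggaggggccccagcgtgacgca
Prdm16: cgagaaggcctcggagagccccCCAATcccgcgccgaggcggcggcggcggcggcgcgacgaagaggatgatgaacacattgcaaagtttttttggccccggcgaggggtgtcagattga

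None of the 5 windows held the E-box CACGTG of the clock proteins (6.02% of all windows), the D-box TTATGNAA (3.07%), the ROR element core AGGTCA (14.0%), the cAMP response element TGACGTCA (1.55%), the C/EBP site TTGCNNAA (9.56%) or the glucocorticoid half-site TGTTCT (16.1%). The 2 windows of Ebf1 lie before RefSeq start sites that are inside the gene as annotated here (44617850 to 44618099 and 44619978 to 44620227 on chromosome 11), and they held no match to any of the 9. A match describes letters only, and its absence says that these letters were not in these windows.

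On the question of how many of the 7 oscillate, JTK called 3, Cebpa, Ebf1 and Zfp516, at P under 0.05, where 36.4% of all tested genes passed. JTK is a rank test of each gene against cosine templates of several phases, with periods of 21 and 24 h. Its exact P is given after correction over the templates. The best template had a period of 21 h for Cebpa, Ebf1 and Zfp516, and 24 h templates alone called the same 3. The same 3 passed after BH adjustment over all tested genes, where 27.1% passed. They also passed the test of a 24 h cosine in edgeR at an adjusted p under 0.05, where 36.1% of genes did. Of the 7 genes, 42.9% were thus called by JTK and by the cosine, against these backgrounds of 36.4% and 36.1%, which is a share near that of all genes. A difference of any shape between the 8 time points was called in edgeR for 4 genes, these 3 and Prdm16, against 39.8% of all tested genes. Prdm16 was the only one called between time points but not for the cosine, as were 11.8% of all tested genes. The median amplitude of the fitted cosine over the 7 was 0.20 on the log2 scale, beside 0.14 over all tested genes. The median range of the time point means was 0.81 beside 0.49. Scatter between mice raises both measures. The spread of the 7 within time points lay at percentiles 52.6 to 97.5 of the 1000 genes nearest in level to each. The median amplitude was that of Cebpb, whose cosine was not called, so these medians do not show a stronger daily change.

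**Figure D2:**
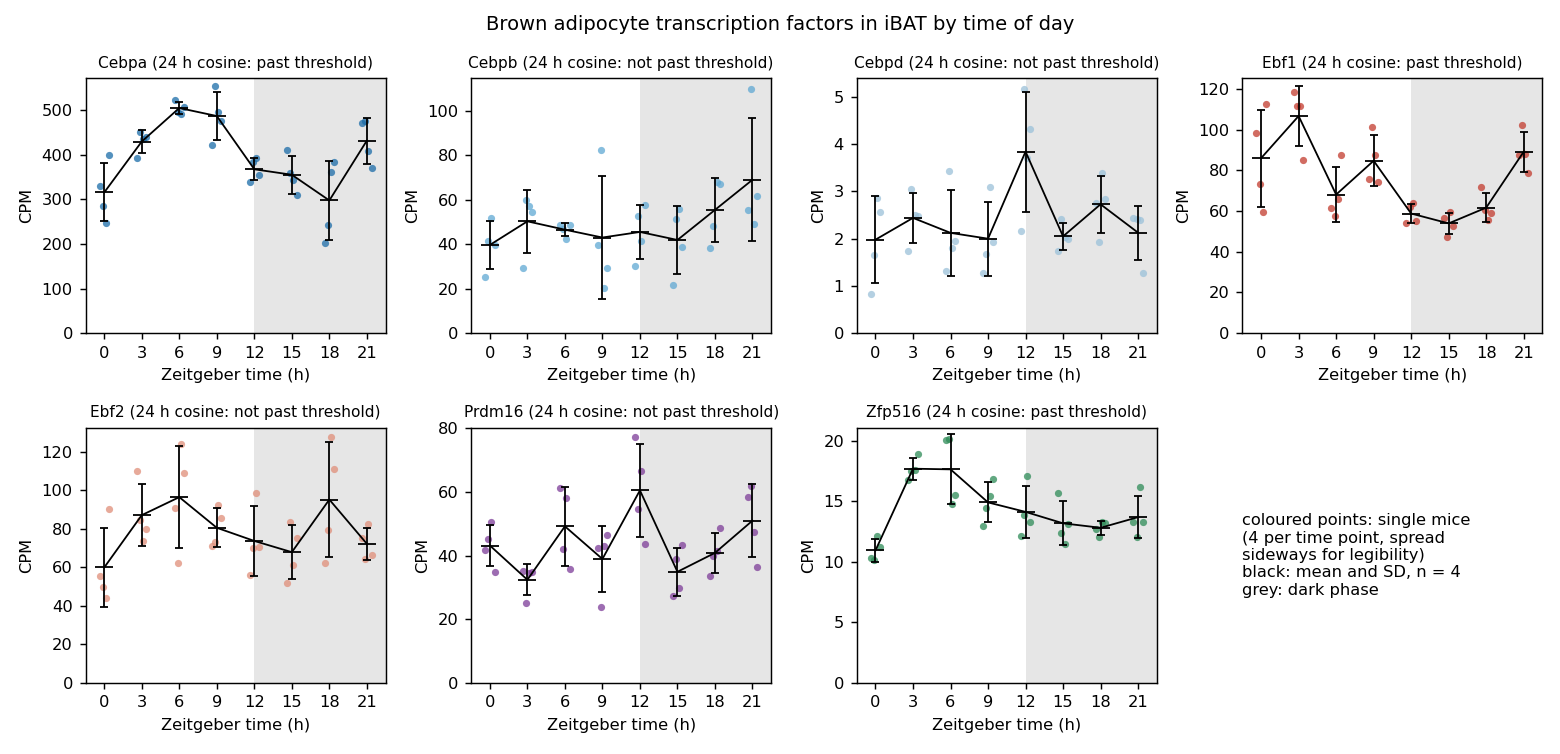
CPM (vertical axis, from 0) against Zeitgeber time in h for each gene. Coloured points are single mice (4 per time point), black marks are the mean and SD, and grey is the dark phase. Cebpa reaches its highest mean at ZT6, Ebf1 and Zfp516 at ZT3, and Prdm16 and Cebpd at ZT12, while Cebpb and Ebf2 show wide scatter between mice.

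Cebpa (ENSMUSG00000034957, a gene of 1 exon on chromosome 7 from 35119293 to 35121928, plus strand, GRCm38) was low at lights on and high in the second part of the light phase. At ZT0 the mice had 330, 286, 248 and 399 CPM. The 4 mice of ZT3 had 393, 452, 435 and 440 CPM, and those of ZT6 had 523, 497, 492 and 508. The ZT6 mice lay close together and all above those of ZT3, while a single mouse of ZT0 reached the ZT3 range. At ZT9 the values were 422, 554, 497 and 476 CPM, and by ZT12 they were 340, 383, 392 and 355. The ZT9 and ZT12 mice did not overlap, although edgeR called Cebpa neither in this step nor in that from ZT3 to ZT6. In the dark phase, ZT15 gave 410, 358, 344 and 309 CPM, ZT18 gave 203, 242, 362 and 383, and ZT21 gave 473, 476, 408 and 371. The ZT18 mice were thus the most scattered of all time points, with 29.8% coefficient of variation, against 2.76% at ZT6.

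The highest mean of Cebpa, 505 ± 13.9 CPM (SD, n = 4) at ZT6, was 1.70 times the lowest, 298 ± 88.7 at ZT18. The fitted 24 h cosine had its peak at ZT6.55 ± 0.93 h (SE) and an amplitude of 0.29 ± 0.07 on the log2 scale, or 1.49-fold from trough to peak. It passed the threshold (edgeR, BH-adjusted p = 0.00704), and the exact JTK P was 1.7e-05. Between opposite times of day, Cebpa fell by 0.76 ± 0.15 on the log2 scale from ZT6 to ZT18 (edgeR adjusted p = 0.000885), where all 4 mice of ZT18 lay below those of ZT6. The rise from ZT0 to ZT3, on the same lane, was 0.45 ± 0.15 (edgeR adjusted p = 0.0453). That call did not hold in 17 of 39 alternative settings, with adjusted p up to 0.168 when replicate 3 of ZT0 was left out, and without replicate 4 of ZT0, the highest mouse there, the rise was 0.58. Over this step the stroma and preadipocyte sum went from 475 to 799 CPM, the macrophage sum from 52.9 to 94.4 and the brown adipocyte sum from 13710 to 11920. The mural cell sum had its highest mean, 809 ± 64.6 CPM (SD, n = 4), at ZT6. At ZT18 it was 687 ± 26.3, with all 4 mice below those of ZT6. The stroma sum was 707 ± 229.8 at ZT6 and 564 ± 86.2 at ZT18, and the brown adipocyte sum was 12665 ± 1579 and 11822 ± 746. Across mice within time points the r of Cebpa was 0.36 with the mural sum (n = 32, permutation p = 0.0362, BH-adjusted 0.195; rho 0.33, permutation p = 0.0849), 0.27 with stroma, 0.16 with macrophages and -0.07 with brown adipocytes. The mural relation had an r of 0.45 without the 2 libraries most extreme in Cebpa and of 0.57, 0.44 and 0.30 on lanes 2, 3 and 4, and it passed BH adjustment under scaling by library size alone. The part of these cells in the Cebpa pattern was not tested.

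Within lane 2 alone Cebpa differed between ZT0, ZT3 and ZT6 (edgeR adjusted p = 0.0114), a comparison made on a single lane. Within lane 3 (adjusted p = 0.0574) and lane 4 (adjusted p = 0.156) it did not pass in the same edgeR test. The difference of ZT21 from ZT18 was 0.54 ± 0.15 on the log2 scale and missed the threshold in the fit over all libraries (edgeR adjusted p = 0.0559).

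Ebf1 (ENSMUSG00000057098, chromosome 11 from 44617317 to 45008091, plus strand) had its highest means from ZT21 to ZT3 and its lowest from ZT12 to ZT18. The mice of ZT21 had 87.5, 102, 88.3 and 78.7 CPM, and those of ZT0 had 98.5, 73.3, 59.7 and 113. At ZT3 the values were 119, 112, 111 and 85.2 CPM. These 3 time points span lights on and hold the highest means of the day. At ZT6 the values were 61.7, 57.4, 66.0 and 87.4 CPM, and at ZT9 they were 75.9, 101, 87.6 and 74.3. At ZT12 they were 54.2, 61.8, 63.9 and 55.2 CPM, all below those of ZT9, although edgeR did not call this step (adjusted p = 0.368). At ZT15 the mice had 56.4, 47.3, 59.5 and 52.6 CPM, and at ZT18 they had 71.7, 60.7, 55.5 and 58.8. All mice from ZT12 to ZT18 had at most 71.7 CPM, and all 4 mice of ZT21 lay above every mouse of ZT18.

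The mean of Ebf1 was 106.8 ± 14.8 CPM (SD, n = 4) at ZT3 and 53.9 ± 5.28 at ZT15, a ratio of 1.98. The fitted peak was at ZT2.09 ± 0.74 h (SE), and its log2 amplitude, 0.37 ± 0.07, was the largest of the 7, or 1.66-fold from trough to peak. Both tests passed (edgeR, BH-adjusted p = 0.00025, and exact JTK P = 0.00014). From ZT3 to ZT15 Ebf1 fell by 0.98 ± 0.15 on the log2 scale (edgeR adjusted p = 8.4e-05), and the call held in all 39 alternative settings. ZT12 was also below ZT0, by 0.55 ± 0.15 (edgeR adjusted p = 0.0152), a call lost in 3 of 39 settings. These were without replicate 4 of ZT0 (log2 change -0.39, adjusted p = 0.0724) and without replicate 1 of ZT0 (-0.48, adjusted p = 0.0569). The third was the fit of only the 8 libraries of the 2 time points (-0.55, adjusted p = 0.0883).

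The drop of Ebf1 from ZT3 to ZT6, 0.65 ± 0.15 on the log2 scale (edgeR adjusted p = 0.0225), happened within lane 2. It missed the threshold when any 1 of 6 mice, 3 of each time point, was left out, with adjusted p up to 0.0808. It also missed it when only the 8 libraries of the 2 time points were fitted (edgeR adjusted p = 0.0850). Within lane 3 Ebf1 differed between ZT9, ZT12 and ZT15 (edgeR adjusted p = 0.0182). Within lane 4 it rose 1.45-fold from ZT18 to ZT21 (edgeR adjusted p = 0.0228). The fit over all libraries did not call Ebf1 for that step. Across the 3 time points of lane 2 together the adjusted p was 0.0888 by edgeR. Ebf1 was therefore the factor that passed within the largest number of lanes, 2 of 3. Because Ebf1 is also a B cell gene, the 4 B cell markers were read beside it. Their summed level was at most 4.80 CPM in any library, with its highest mean, 3.71 CPM, at ZT3 and its lowest, 1.43, at ZT15, the same 2 time points as for Ebf1. Among mice of the same time point the correlation of Ebf1 with this sum was 0.22 (Pearson's r, n = 32, permutation p = 0.390) with Spearman's rho of 0.11 (permutation p = 0.632). Pearson's r fell to -0.0025 when the 2 libraries most extreme in Ebf1 were dropped. On lanes 2, 3 and 4 alone r came to 0.56, -0.16 and -0.59. The endothelium sum also had its highest mean, 938 ± 38.1 CPM (SD, n = 4), at ZT3, with its lowest, 726 ± 36.4, at ZT12. Its r with Ebf1 across mice within time points was 0.49 (n = 32, permutation p = 0.0510, BH-adjusted 0.221) and rho 0.37 (permutation p = 0.114), with r of 0.36 without the 2 libraries most extreme in Ebf1 and of 0.56, 0.45 and 0.28 on the 3 lanes. For the mural cell sum r was 0.42 (permutation p = 0.0467, BH-adjusted 0.218) and rho 0.35 (permutation p = 0.0954), with r of 0.23 without those 2 libraries and of 0.83, 0.13 and -0.49 on the 3 lanes. The part of these cell types in the Ebf1 pattern was not tested.

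Zfp516 (ENSMUSG00000058881) rose steeply after lights on. At ZT0 the mice had 10.3, 10.1, 12.1 and 11.2 CPM, the lowest group of the day. At ZT3 they had 16.7, 17.5, 17.6 and 18.9 CPM, all above every mouse of ZT0. At ZT6 there were 2 high mice, with 20.1 and 20.2 CPM, and 2 lower ones, with 14.8 and 15.5. The mice had 12.9, 14.4, 15.4 and 16.9 CPM at ZT9 and 12.1, 13.9, 17.1 and 13.3 at ZT12, and neither of these steps was called. In the dark phase the values were 15.7, 12.4, 11.5 and 13.1 CPM at ZT15, 12.7, 12.0, 13.3 and 13.2 at ZT18, and 13.2, 12.1, 16.1 and 13.3 at ZT21. No mouse of the dark phase after ZT12 reached the lowest value of ZT3.

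The step of Zfp516 from ZT0 to ZT3 was 0.69 ± 0.12 on the log2 scale, or 1.62-fold (edgeR, BH-adjusted p = 0.000403). It lay within 1 lane and was called in all 39 alternative settings, where the log2 change ran from 0.66 to 0.76. Over the same step the summed stroma and preadipocyte markers went from their lowest mean, 475 ± 63.8 CPM (SD, n = 4), to their highest, 799 ± 136, and the macrophage sum from 52.9 ± 11.8 to 94.4 ± 20.4. The Schwann cell sum went from 55.5 ± 4.32 to 138 ± 80.2 CPM, and the brown adipocyte sum from 13710 ± 955 to 11920 ± 470. The relation of Zfp516 with the brown adipocyte sum (r = -0.67) is the one of these that passed BH adjustment with TMM scaling, as given with the other marker relations. With scaling by library size alone those with the stroma and macrophage sums passed too. Across mice within time points Zfp516 had an r of 0.51 with the stroma sum (n = 32, permutation p = 0.0181, BH-adjusted 0.156) and a Spearman's rho of 0.46 (permutation p = 0.0254), with r of 0.43 without the 2 libraries most extreme in Zfp516 and of 0.52, 0.56 and 0.37 on lanes 2, 3 and 4. For the macrophage sum r was 0.40 (permutation p = 0.0453, BH-adjusted 0.218) and rho 0.46 (permutation p = 0.0213), with r of 0.42 without those 2 libraries and of 0.51, 0.30 and 0.72 on the 3 lanes. For the Schwann cell sum r was 0.50 (permutation p = 0.0269, BH-adjusted 0.171) and rho 0.44 (permutation p = 0.0425), with r of 0.38 without those 2 libraries and of 0.46, 0.70 and -0.40 on the 3 lanes. The part of these cells in the Zfp516 step was not tested. The fitted peak was at ZT6.64 ± 0.99 h (SE), and the log2 amplitude was 0.21 ± 0.06 (edgeR adjusted p = 0.00661, exact JTK P = 0.0060). Zfp516 was lower at ZT18 than at ZT6 by 0.46 ± 0.12 on the log2 scale (edgeR adjusted p = 0.00727) and lower at ZT15 than at ZT3 by 0.42 ± 0.12 (edgeR adjusted p = 0.0139), and higher at ZT12 than at ZT0 by 0.37 ± 0.12 (edgeR adjusted p = 0.0323). The mice did not overlap in any of these 3 comparisons. The stroma sum went from 475 to 707 CPM from ZT0 to ZT12, from 799 to 578 from ZT3 to ZT15, and from 707 to 564 from ZT6 to ZT18. The brown adipocyte sum went from 13710 to 13596, from 11920 to 12024 and from 12665 to 11822. The part of these cells in the 3 differences of Zfp516 was not tested. The ZT12 call against ZT0 was lost in 6 of 39 settings, with the smallest log2 change without replicate 3 of ZT12 (0.26, adjusted p = 0.161), and the ZT15 call against ZT3 without replicate 3 of ZT15 (-0.36, adjusted p = 0.0624). Within lane 2 Zfp516 passed (edgeR adjusted p = 0.00414), and within lanes 3 and 4 the adjusted p was 0.732 and 0.603. Among the factors Zfp516 varied least between mice, with an SD of 0.16 on the log2 scale within time points. The median over all tested genes was 0.20. The spread of Zfp516 was at percentile 52.6 of the 1000 genes nearest in level, so it was ordinary for that level.

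Prdm16 (ENSMUSG00000039410, chromosome 4 from 154316125 to 154636873, minus strand) was not called for a 24 h cosine (amplitude 0.07 ± 0.10 log2, SE, edgeR adjusted p = 0.735). It differed between time points in edgeR (adjusted p = 0.0148). Its means did not follow a single rise and fall. ZT3 had 35.2, 25.2, 34.5 and 34.7 CPM, ZT6 had 61.2, 41.9, 58.0 and 35.7, and ZT9 had 42.5, 23.8, 43.1 and 46.4. At ZT12 the mice had 77.4, 54.5, 66.6 and 43.5 CPM, and at ZT15 they had 27.4, 38.8, 30.0 and 43.5. The lowest mouse of ZT12 thus lay just above the highest of ZT15. The remaining groups were 41.9, 45.1, 50.6 and 35.0 CPM at ZT0, 33.4, 40.0, 41.4 and 48.5 at ZT18, and 58.3, 61.8, 47.5 and 36.3 at ZT21.

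From ZT12 to ZT15, within lane 3, Prdm16 fell by 0.79 ± 0.21 on the log2 scale, from 60.5 ± 14.7 to 34.9 ± 7.52 CPM (SD, n = 4 each; edgeR adjusted p = 0.0376). The fall stayed between 0.65 and 0.92 in 39 alternative settings but missed the threshold in 7 of them, with adjusted p = 0.145 without replicate 1 of ZT12 and 0.109 without replicate 1 of ZT15. The test over the 3 time points of lane 3 alone gave an adjusted p of 0.153 in edgeR, and that of lane 2 gave 0.0793. The call between all time points held in all 39 settings, with adjusted p of at most 0.0429. Over the same step the summed endothelium markers went from 726 ± 36.4 to 856 ± 62.9 CPM (SD, n = 4), the stroma and preadipocyte sum from 707 ± 90.3 to 578 ± 200.1, the brown adipocyte sum from 13596 ± 2040 to 12024 ± 1343 and the muscle sum from 1621 ± 2287 to 2404 ± 2107. With the muscle sum as a covariate the log2 change of Prdm16 was -0.81 (edgeR adjusted p = 0.0320). Across mice within time points the r of Prdm16 was -0.19 with the endothelium sum (n = 32, permutation p = 0.386) and 0.05 with the stroma sum (permutation p = 0.824), with rho of -0.11 (permutation p = 0.598) and 0.07 (permutation p = 0.758). With the brown adipocyte sum r was -0.024 (permutation p = 0.918) and rho -0.031 (permutation p = 0.892), and with the muscle sum they were 0.16 (permutation p = 0.437) and 0.16 (permutation p = 0.396). Without the 2 libraries most extreme in Prdm16, r was -0.27, -0.24, 0.22 and -0.059 in that order of the 4 sums. On lane 3, which holds the step, it was -0.033, 0.096, 0.062 and 0.39, on lane 2 it was -0.37, -0.42, -0.39 and -0.35, and on lane 4 it was -0.21, 0.67, 0.24 and 0.59. The part of these cells in the Prdm16 step was not tested. Between opposite times of day none of the 4 comparisons of Prdm16 passed.

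Cebpb (ENSMUSG00000056501, 1 exon, chromosome 2 from 167688915 to 167690418, plus strand) varied widely between mice. Its time point means ran from 39.6 ± 10.9 CPM (SD, n = 4) at ZT0 to 68.9 ± 27.7 at ZT21. The mice of ZT9 had 39.7, 82.4, 20.3 and 29.3 CPM, and 1 mouse of ZT21 had 110 CPM beside 55.3, 48.9 and 61.6. The SD within time points was 0.52 on the log2 scale, at percentile 97.5 of the 1000 genes nearest in level. Neither the cosine nor the time points passed for Cebpb (edgeR adjusted p = 0.365 for the cosine and 0.405 between time points), none of its 12 contrasts was called, and the groups overlapped in all of them. Without replicate 2 of ZT9, the mouse at 82.4 CPM, edgeR called ZT21 higher than ZT9. About 20.7% of its exonic bases lie opposite to Tmem189, which had a mean of 311 counts per library beside 851 for Cebpb. The libraries were stranded, and no source used here says if reads were counted by strand.

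Cebpd (ENSMUSG00000071637, 1 exon, chromosome 16 from 15887286 to 15891031, plus strand) was the least abundant, with 13 to 89 counts per library, which limits its precision. Its highest values stood at ZT12, with 2.16, 5.17, 3.70 and 4.33 CPM, against 0.834, 1.66, 2.86 and 2.56 at ZT0. At the other 6 time points the mice lay between 1.26 and 3.43 CPM. The difference between ZT12 and ZT0 was 0.95 ± 0.33 on the log2 scale, or 1.93-fold (edgeR adjusted p = 0.0463), and the groups overlapped. It was not called in 21 of 39 alternative settings, with the smallest value, 0.70 (adjusted p = 0.160), without replicate 1 of ZT0. The stroma and preadipocyte sum was also higher at ZT12, 707 ± 90.3 CPM (SD, n = 4), than at ZT0, 475 ± 63.8, without overlap, and the blood sum was 464 ± 81.8 at ZT12 and 688 ± 165 at ZT0. Across mice within time points Cebpd had an r of 0.50 with the stroma sum (n = 32, permutation p = 0.00469, BH-adjusted 0.0657) and a rho of 0.51 (permutation p = 0.00766), with r of 0.48 without the 2 libraries most extreme in Cebpd and of 0.66, 0.32 and 0.57 on lanes 2, 3 and 4. That relation passed BH adjustment with scaling by library size alone, and without replicate 1 of ZT15 or replicate 3 of ZT18. Across mice within time points the r of Cebpd was also 0.58 with blood, 0.50 with skeletal muscle, 0.43 with macrophages and -0.26 with brown adipocytes. The part of these cells in the Cebpd difference was not tested. Neither the cosine (edgeR adjusted p = 0.325) nor the test between time points (adjusted p = 0.118) passed. With the muscle marker sum as a covariate the latter was 0.0477 in edgeR. About 15.0% of its exonic bases lie opposite to Spidr, which had a mean of 141 counts per library beside 42.1 for Cebpd.

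Ebf2 (ENSMUSG00000022053, chromosome 14 from 67233292 to 67430918, plus strand) had its highest means at ZT6, 96.4 ± 26.5 CPM, and at ZT18, 95.2 ± 29.7 (SD, n = 4 each), and its lowest at ZT0, 59.9 ± 20.7. The mice of ZT0 had 55.3, 49.9, 44.3 and 90.2 CPM, so that 1 mouse stood far above the others. The mice of ZT6 had 90.8, 62.2, 124 and 109 CPM, and those of ZT18 had 62.5, 79.3, 128 and 111. Neither the cosine nor the time points passed (edgeR adjusted p = 0.671 and 0.121). Without replicate 4 of ZT0, the high mouse, the adjusted p between time points was 0.0234. The spread of Ebf2 within time points was at percentile 95.5 of the 1000 genes nearest in level.

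With lane as a term beside the cosine, edgeR called 4 of the 7, Ebf1 (adjusted p = 8.2e-05), Cebpa (0.00236), Zfp516 (0.0108) and Ebf2 (0.0471), where 17.2% of all tested genes passed. The first 3 kept their call in all 38 alternative settings. Ebf2 lost it in 26 of them, with adjusted p up to 0.126 without replicate 3 of ZT6. Within single lanes, edgeR called Cebpa and Zfp516 on lane 2, where 12.6% of genes passed, Ebf1 on lane 3, where 1.78% passed, and Ebf1 on lane 4, where 4.02% passed. Taken over the lanes, 3 of 7 passed in at least 1, beside 15.8% of all tested genes. A 12 h component beside the 24 h cosine was called for 0 of 7 in edgeR (0.464% of all tested genes), and 2 had an unadjusted p under 0.05, Ebf2 (0.0104) and Zfp516 (0.0299), as did 17.6% of all tested genes.

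Between time points 12 h apart there were 7 calls among 28 tests. From ZT0 to ZT12 edgeR called Cebpd and Zfp516 higher and Ebf1 lower, 3 of 7 beside 15.9% of all tested genes. From ZT3 to ZT15 it called Ebf1 and Zfp516 lower, beside 14.2%, and from ZT6 to ZT18 Cebpa and Zfp516 lower, beside 16.9%. From ZT9 to ZT21 it called 0 of 7, beside 9.62%, and also 0 at an unadjusted p under 0.05, beside 24.4%. Zfp516 was called in 3 of the 4 comparisons and in both directions. Groups of mice did not overlap in 5 of the 28, once for ZT12 against ZT0 (16.3% of all tested genes did not overlap there), in 2 genes each for ZT15 against ZT3 (17.3%) and ZT18 against ZT6 (22.9%), and in none for ZT21 against ZT9 (14.3%).

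**Figure D3:**
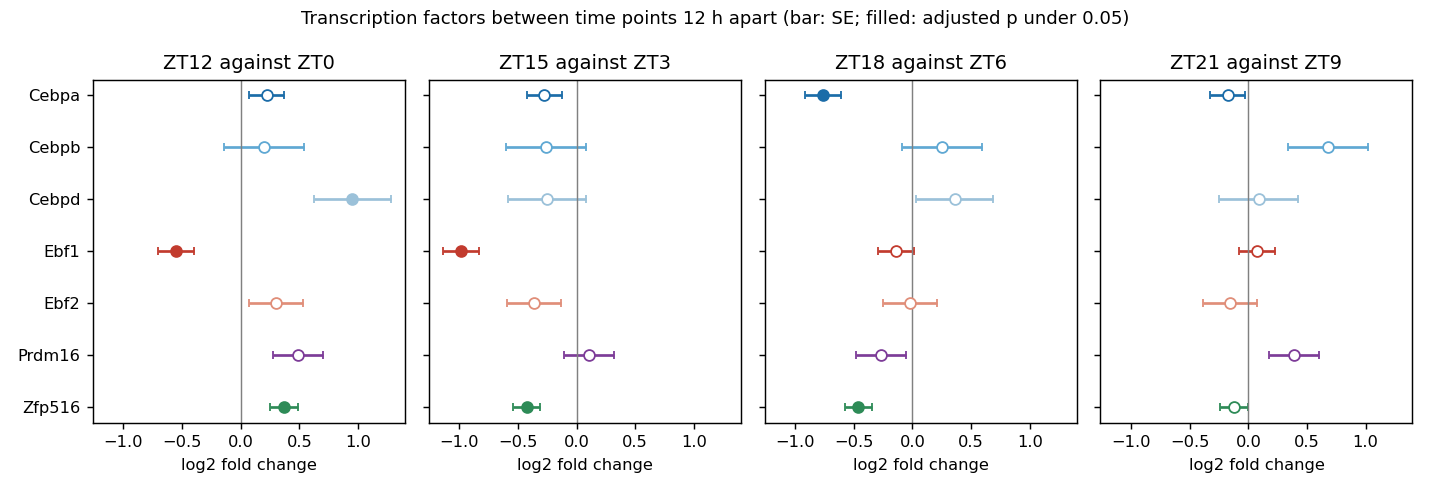
Log2 fold change (horizontal axis) of each gene between time points 12 h apart, from edgeR, with the SE as a bar and filled points where the adjusted p was under 0.05. Filled points are Cebpd, Ebf1 and Zfp516 at ZT12 against ZT0, Ebf1 (-0.98) and Zfp516 at ZT15 against ZT3, and Cebpa (-0.76) and Zfp516 at ZT18 against ZT6.

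Between neighbouring time points there were 4 calls among 56 tests in edgeR. These were the rises of Cebpa and Zfp516 from ZT0 to ZT3, beside 13.8% of all tested genes, the drop of Ebf1 from ZT3 to ZT6, beside 2.08%, and the drop of Prdm16 from ZT12 to ZT15, beside 3.04%. All 4 steps lay within a lane. The other 5 steps had 0 calls in edgeR. Of all tested genes, 0% were called from ZT9 to ZT12, 7.72% from ZT21 to ZT0, 1.95% from ZT6 to ZT9, 1.17% from ZT15 to ZT18 and 2.06% from ZT18 to ZT21. At an unadjusted p under 0.05 there were 4 of the 7 from ZT9 to ZT12, Cebpa, Cebpd, Ebf1 and Prdm16, beside 6.75% of all tested genes at that threshold. There were 3 from ZT21 to ZT0 (21.9% of all tested genes), 2 from ZT6 to ZT9 (14.9%), 1 from ZT15 to ZT18 (14.8%) and 2 from ZT18 to ZT21 (15.0%). Groups of mice did not overlap in 7 of the 56, of which 1 was from ZT0 to ZT3 (16.0% of all tested genes did not overlap there), 2 from ZT3 to ZT6 (8.75%), 2 from ZT9 to ZT12 (3.38%), 1 from ZT12 to ZT15 (10.1%) and 1 from ZT18 to ZT21 (13.0%). There was none from ZT6 to ZT9 (6.69%), from ZT15 to ZT18 (10.3%) or from ZT21 to ZT0 (12.9%). These contrasts share time points with each other and with those 12 h apart, so they are not separate pieces of evidence.

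Ratios of 2 factors within the same library depend little on how libraries are scaled. They were used to ask whether the factors keep a constant proportion over the day. The ratios were taken from log2 CPM with a prior count of 2, which shifts most those with Cebpd, at 13 to 89 counts per library. Of the 21 pairs, 5 had a ratio with a 24 h cosine (permutation test over the 32 libraries with 100000 resamples, BH adjustment over the 21 pairs). These tests were added after the patterns had been seen. The pair with the smallest p was Cebpa and Ebf1 (amplitude 0.37 on the log2 scale, permutation p = 0.00059, BH-adjusted 0.0124). Its log2 ratio was 1.90 ± 0.14 (SD, n = 4) at ZT0 and 2.91 ± 0.26 at ZT6, and the 4 mice of ZT6 did not overlap with those of ZT0. It passed in all 32 runs that left out a library.

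Ebf1 was part of 4 of the 5 pairs. With Zfp516 the ratio had an amplitude of 0.35 (BH-adjusted permutation p = 0.0168, 30 of 32 runs), with Cebpd 0.57 (0.0168, 31 runs), and with Ebf2 0.37 (0.0359, 19 runs). The log2 ratio of Ebf1 to Zfp516 was 2.92 ± 0.47 (SD, n = 4) at ZT0 and 1.94 ± 0.46 at ZT6. The fifth pair was Cebpa and Cebpb, with an amplitude of 0.47 (BH-adjusted permutation p = 0.0168, 30 runs). The ratio of Cebpa to Zfp516, the factors whose fitted peaks were at ZT6.55 and ZT6.64, had an amplitude of 0.07 and did not pass (permutation p = 0.582), which does not show that their patterns were alike.

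**Figure D4:**
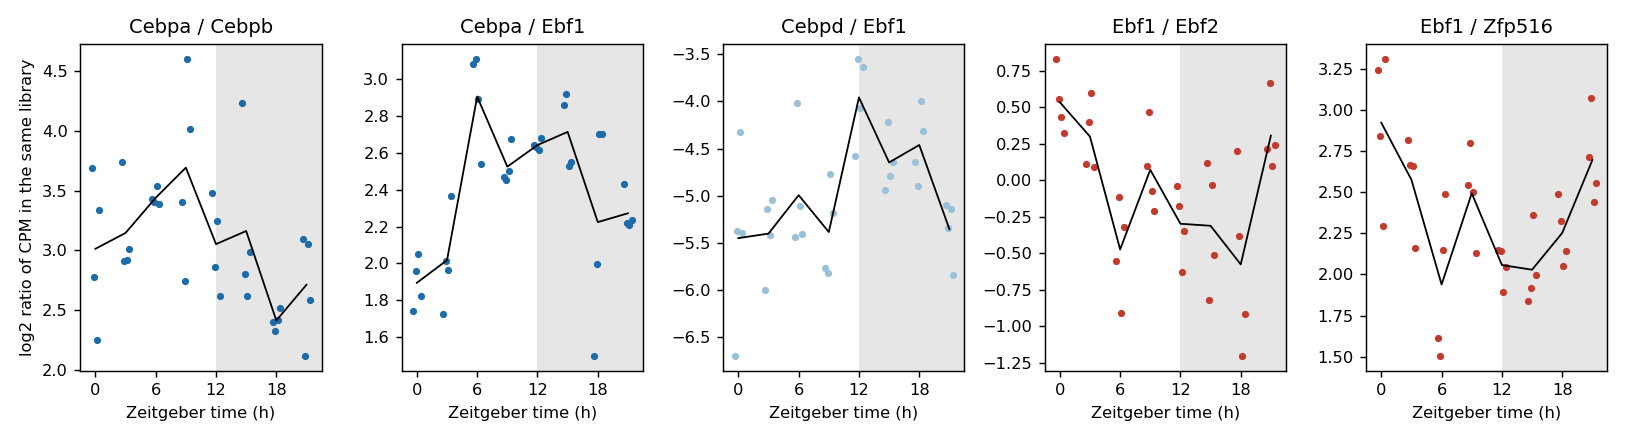
Log2 ratio of CPM (prior count 2) of 2 factors in the same library (vertical axis, own scale in each panel) against Zeitgeber time in h, for the 5 pairs that passed. Points are single mice, the line joins the means of 4 mice, and grey is the dark phase. The ratio of Cebpa to Ebf1 has its lowest mean, 1.90, at ZT0 and its highest, 2.91, at ZT6.

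No pair of the 7 factors passed correction when related across mice within time points. Of 21 pairs, 0 passed (permutation of mice within time points, 100000 resamples, two-sided, BH adjustment) and 2 had an unadjusted permutation p under 0.05. Cebpa and Ebf2 had a Pearson's r of 0.51 (n = 32, permutation p = 0.0362, BH-adjusted 0.380) and a Spearman's rho of 0.40 (permutation p = 0.0699), and r was 0.39 without the 2 libraries most extreme in Cebpa. Ebf1 and Prdm16 had an r of -0.42 (permutation p = 0.0224, BH-adjusted 0.380) and a rho of -0.37 (permutation p = 0.0512), with r of -0.36 without the 2 most extreme in Ebf1. Of 70 relations of the 7 factors with 10 of the 11 summed marker lists (granulocytes, with 2 of 3 markers not tested, were left out), examined after the data were seen, 4 passed in the same test, and no relation passed in 9 of 33 alternative runs. The one that passed in most runs was that of Ebf2 with B cell markers (r = 0.69, BH-adjusted permutation p = 0.0341, 22 of 33 runs), followed by Zfp516 with brown adipocyte markers (r = -0.67, BH-adjusted permutation p = 0.0341, 21 runs). Spearman's rho was 0.66 and -0.65, and r without the 2 libraries most extreme in the factor was 0.58 and -0.56. Cebpd with blood markers (r = 0.58, 13 runs) and Cebpb with mural cell markers (r = -0.60, 6 runs) passed too. Within lanes 2, 3 and 4 the values of r were 0.71, 0.56 and 0.87 for Ebf2 and -0.65, -0.70 and -0.67 for Zfp516.

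The genes most like each factor over the 32 libraries were found by Pearson's r of log2 CPM among 13442 other genes, as a description. For Cebpa they were Zmym3 (0.88), Fchsd2 (0.87) and Cdk2 (0.87), with fitted peaks between ZT6.54 and ZT6.71. For Zfp516 they were Snx30 (0.84), Ptch1 (0.84) and Shprh (0.83). For Ebf1 the values were lower, with Map4k4 (0.75), Nfe2l3 (0.74) and Calu (0.73), whose fitted peaks lay between ZT2.40 and ZT4.09. The factors whose cosine was not called had their nearest genes at 0.74 (Frat1 for Cebpb), 0.71 (Ccn2 for Cebpd), 0.69 (Ehd1 for Prdm16) and 0.68 (F2r for Ebf2). Pdgfrb, a marker of mural cells, was also among the 3 nearest to Ebf2 (0.66). The libraries share time and lane. Within time points the r of Cebpa with its 3 nearest genes was 0.62 to 0.65, and that of Ebf1 was 0.32 to 0.49.

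Related genes were read from lists that were chosen with earlier results of these data known. Over all tested genes 36.1% followed a cosine and 39.8% differed between time points in edgeR. Of 3 relatives of the C/EBP genes, Cebpe had at most 1 count and was not tested, Cebpg, a partner of other C/EBP proteins, followed a cosine with its peak in the dark phase at ZT20.1 (amplitude 0.14 log2, edgeR adjusted p = 0.00148), and Ddit3, a stress-induced C/EBP protein, did not (edgeR adjusted p = 0.523). Of the 3 EBF and PRDM relatives none followed a cosine, and Ebf3 differed between time points (edgeR adjusted p = 0.00672), with its lowest mean of 65.9 ± 5.99 CPM (SD, n = 4) at ZT3 and its highest means of 112.6 ± 27.3 at ZT15 and 108.2 ± 25.6 at ZT0.

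Of 9 cofactors of PRDM16, EBF2 and ZFP516, edgeR called 3 for a cosine, Ctbp1, Smarcc1 and Dpf3, beside 36.1% of all tested genes, and 6 between time points, beside 39.8%. Dpf3, a chromatin remodelling subunit linked to EBF2, had its highest mean, 11.4 CPM, at ZT18 and its lowest, 6.48, at ZT3 (edgeR adjusted p = 0.00441 for the cosine). Zfp423, which represses EBF2 in white fat, differed between time points without a cosine (edgeR adjusted p = 0.00389), with its highest mean, 18.3 CPM, at ZT12, the same time point as for Prdm16. Lysine demethylase Kdm1a and Ctbp2 passed neither test (edgeR adjusted p = 0.263 and 0.0580 between time points). The median amplitude of the cofactors was 0.07 on the log2 scale, beside 0.14 over all tested genes. With lane in the fit 4 of the 9 passed in edgeR, beside 17.2% of all tested genes. Smarcc1 and Dpf3 were among them (adjusted p = 0.0104 and 0.00584), and Ctbp1 was not (0.863).

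Of 18 other transcription factors of brown adipocytes, 17 were tested and 9 followed a 24 h cosine in edgeR, beside 36.1% of all tested genes. The peak of 8 of them was in the light phase (18.4% of all tested genes), where Cebpa, Ebf1 and Zfp516 also had theirs. JTK called 6 of the 17, beside 36.4% of all tested genes. Klf11 (exact P = 0.685) and Plac8 (0.162) passed the cosine in edgeR but not JTK. Plac8 was at low level, with 1 to 18 counts per library, and close to the threshold (edgeR adjusted p = 0.0497). Klf15, a factor of amino acid and lipid use, had the largest amplitude, 0.91 log2 with the peak at ZT9.06 (edgeR adjusted p = 7.0e-09). Ppara, the receptor that drives fatty acid oxidation genes, had its lowest mean, 66.5 CPM, at ZT0 and its highest, 212.6 CPM, at ZT9 (edgeR adjusted p = 0.0105). Irf4, a partner of PGC-1α, passed the cosine test (edgeR adjusted p = 0.0185) but neither JTK (exact P = 0.815) nor the cosine beside lane (edgeR adjusted p = 0.221), and its highest mean, at ZT3, was 65.2 ± 55.6 CPM (SD, n = 4). Srebf1, which drives lipid synthesis genes, was the 1 with a dark phase peak, at ZT15.3. Pparg, the partner of C/EBPα, passed neither test (edgeR adjusted p = 0.595 and 0.366). With lane in the fit 4 of the 17 passed in edgeR, beside 17.2% of all tested genes.

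Of 12 genes described as targets of these factors, edgeR called 4 for a cosine, beside 36.1% of all tested genes, and 3 with lane in the fit, beside 17.2%. Ucp1 had its highest mean, 2973 CPM, at ZT9 and its lowest, 1275 CPM, at ZT18, with the fitted peak at ZT6.49 (edgeR adjusted p = 0.00958), and Adipoq, which encodes adiponectin, had its fitted peak at ZT10.2 (edgeR adjusted p = 0.0427). Neither passed with lane in the fit (edgeR adjusted p = 0.202 for Ucp1 and 0.718 for Adipoq). Lep, which encodes leptin, and Slc2a4, the insulin-responsive glucose transporter, peaked in the dark phase, at ZT16.0 and ZT18.3 (edgeR adjusted p = 0.0017 and 0.00706), and both passed with lane in the fit (0.00792 and 0.0192). The lipid droplet gene Cidea and the fatty acid carrier Fabp4 did not pass (edgeR adjusted p = 0.666 and 0.596).

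**Figure D5:**
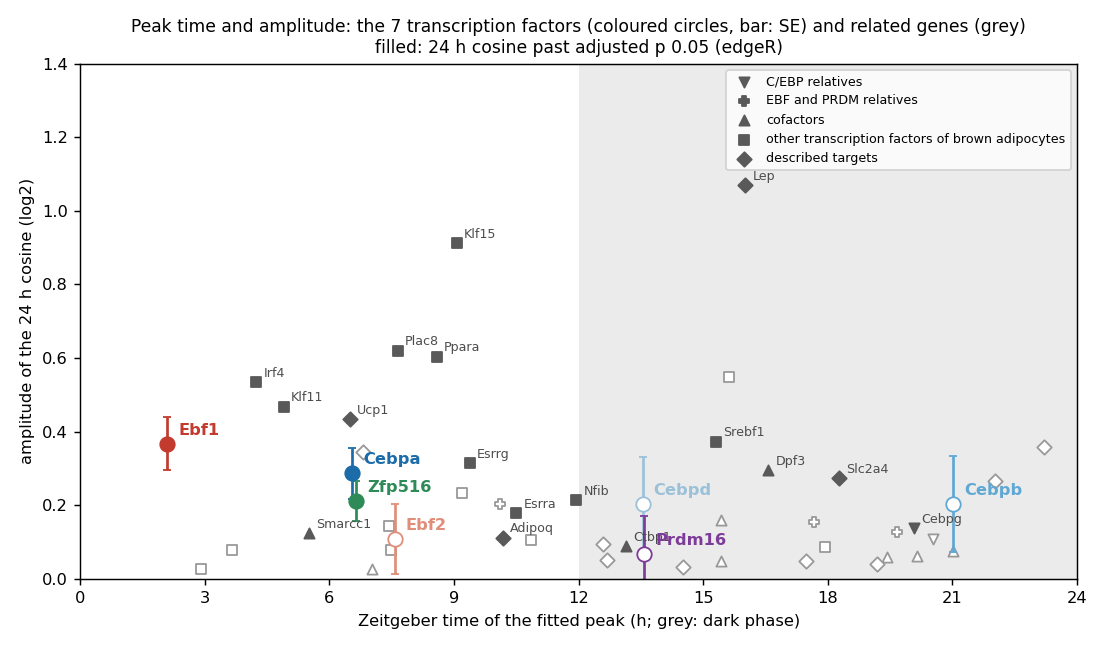
Zeitgeber time of the fitted peak in h (horizontal axis, grey for the dark phase) against the amplitude of the 24 h cosine on the log2 scale, for the 7 factors (coloured circles, bar for the SE) and related genes (grey symbols). Symbols are filled where the cosine passed an adjusted p of 0.05 in edgeR. Cebpa, Ebf1 and Zfp516 are filled with peaks between ZT2.09 and ZT6.64, and Lep (1.07) and Klf15 (0.91) have the largest amplitudes.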

How the data were processed

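Stranded libraries of iBAT RNA from 32 mice were read in pairs. The authors mapped the reads to mm10 with GSNAP and counted them per Ensembl gene with HTSeq (0.6.1), and deposited raw read counts without normalization. Whether counting used the strand is not given in the sources used here. Samples were grouped by the time point in the labels. The factors and lists were chosen with earlier results of these data known.

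Counts were filtered with filterByExpr (time point as group) and TMM-scaled in edgeR 4.0.16 (R 4.3.3). JTK, the test named in the study's methods, was an own implementation with periods of 21 and 24 h and 15 templates chosen here. Its exact P was multiplied by the number of templates and held against a threshold of 0.05. Adjusted p-values come from the quasi-likelihood test of edgeR, adjusted by BH over 15505 genes. Amplitudes and peaks came from linear fits to log2 CPM (prior count 2). Levels are TMM-scaled CPM. Named genes were the 7 factors, the 3 genes nearest to each by correlation (mean of at least 1 CPM) and members of the lists. Positions and exonic lengths come from the supplied GENCODE annotation of GRCm38, which is another release than the one counted. The lowest mean chi-square per gene between 2 libraries of a time point was 7.56, so none was a duplicate. The tests were tested on simulated counts of 15505 genes, with 100 genes each given a cosine of log2 amplitude 0.2 or 0.4. Of these, the edgeR cosine recovered 40% and 61%, the time point test 19% and 45%, and JTK 60% and 81%. False calls numbered 3, 0 and 222 in that order of tests. A gene that was not called may thus still have a rhythm of that size. Ratios of factors and relations with marker sums were added after seeing the data. Alternatives were DESeq2 (1.42.0) tests and size factors, library size alone, no filter, removal of mitochondrially encoded genes, single libraries left out, a replicate block, and a muscle marker covariate added after seeing the data.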

Additional observations from a re-analysis of the deposited data

Results flagged for a closer look

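Of 56 groups of 4 mice, 2 held a mouse whose gap to the nearest other was above Dixon's 95% critical value, where chance flags about 1 in 20 groups. At ZT21 the lowest mouse of Cebpd had 1.26 CPM beside 2.43, 2.41 and 2.39 in the others, with a gap of 0.965 of the range. At ZT3 the lowest mouse of Prdm16, replicate 2, had 25.2 CPM beside 35.2, 34.5 and 34.7, with a gap of 0.935 of the range. The latter library also had the highest summed level of skeletal muscle markers, 5065 CPM. The part of muscle RNA in that Prdm16 value was not tested.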

How the results depend on the processing

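The calls of Cebpa, Ebf1 and Zfp516 by JTK and by the cosine held in every alternative run. Over all alternatives the number of factors was 3 by JTK, 3 for the cosine, 4 to 5 between time points, 3 to 4 beside lane, 3 to 4 within lanes and 0 for the 12 h component, and 0 pairs were related within time points. Calls between time points 12 h apart numbered 7, and 4 when only the 8 libraries of the 2 time points were fitted. Leaving out a library gave 4 to 8, with the 4 without replicate 1 of ZT0. Calls between neighbouring time points numbered 4, and 2 in that smaller fit. Of the 4, only the rise of Zfp516 from ZT0 to ZT3 was kept there, and the calls of Cebpa, Ebf1 and Prdm16 were lost. Leaving out a library gave 2 to 9, with the 9 without replicate 4 of ZT0 and the 2 without replicate 2 or 3 of ZT3, 1, 2 or 3 of ZT6, 2 of ZT12 or 3 of ZT15. With the replicate number as a block, neighbouring calls fell to 2 (Zfp516 from ZT0 to ZT3 and Ebf1 from ZT3 to ZT6), and of the other 6 counts fitted with it, that beside lane went from 4 to 3 and 5 did not change. JTK, pair relations, ratios and marker relations were not run with the block. The numbers did not pair the samples, since the mean correlation of deviations was -0.03 over 112 same-numbered pairs and 0.01 over others, and 8 of 32 libraries were closest to their own number. Pairs with a cosine in their ratio numbered 5, and 2 to 11 when a library was left out, with 11 without replicate 1 of ZT15, 8 without replicate 2 of ZT9, 3 without replicate 4 of ZT0, 3 of ZT9 or 2 of ZT21, and 2 without replicate 1 of ZT0. Relations with marker lists numbered 4, and 8 by library size alone and 0 to 5 when a library was left out. The cause of these changes was not tested. No direction reversed. Depth limits Cebpd most, with 13 to 89 counts per library. Ratio and marker tests and the muscle covariate were chosen after seeing the data.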
